A study of Homo sapiens with 12 samples.

Results

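SR proteins and heterogeneous nuclear ribonucleoproteins (hnRNPs) are the main RNA-binding regulators of pre-mRNA splicing, and their transcripts were followed here in cells treated with bleomycin. The genes were chosen by name among the protein-coding genes of the deposited count table: 12 SRSF genes, the 2 TRA2 genes and 26 genes whose symbol begins with HNRNP, 40 of 58735 genes in all. A filter on low counts left 36 of the 40 to be tested, among 16702 genes. The 4 others were copies related to HNRNPC: HNRNPCL1, HNRNPCL3 and HNRNPCL4 had 0 counts in all 12 libraries, where a count of 0 allows at most 0.137 to 0.190 counts per megacount (CPM, 3 counts of the library's total), and HNRNPCL2 had 1 count in 1 knockout bleomycin library.

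SR proteins carry RNA recognition motifs and a domain rich in arginine and serine, bind exonic enhancers and as a rule favour the inclusion of exons. Most hnRNPs bind silencers in exons and introns, pack nascent transcripts and often favour exon skipping, so that the ratio between both families sets many splice choices. Several of these genes limit their own level by splicing their transcripts into forms that nonsense-mediated decay (NMD) removes.

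The cells were Beas-2b, a line of immortalised cells from human bronchial epithelium. The groups were ANT1 knockout cells given bleomycin, ANT1 knockout cells in control medium, wild type cells given bleomycin and wild type cells in control medium, with 3 libraries each that the series calls biological replicates. The knockout was made by CRISPR as clones of the gene SLC25A4, which encodes the mitochondrial ADP/ATP carrier ANT1, and since the sources used here do not give the number of clones, genotype cannot be told apart from clone. Bleomycin, which breaks DNA, was given, per the labels, at 10 mg/ml over 2 days to bring on senescence, and poly(A) RNA was sequenced. The unit of that dose is printed as labelled and could not be checked here.

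The libraries held 15.75 to 21.92 megacounts. SLC25A4 had 4.09 to 6.97 CPM in the 6 knockout libraries and 16.1 to 27.5 CPM in the 6 wild type libraries. Its log2 fold change, knockout over wild type, was -2.26 in bleomycin (SE 0.22, adjusted p = 0.000904) and -1.78 in control medium (SE 0.21, adjusted p = 0.0111). The keratins KRT7, KRT8 and KRT18 and vimentin were abundant, while the epithelial markers KRT5, EPCAM and CDH1 stayed at or under 2.96 CPM in every library. KRT19 had 51.6 to 76.3 CPM in bleomycin libraries, against 15.5 to 29.1 CPM in control libraries. KRT7 and vimentin were also higher in every bleomycin library than in any control library, and KRT8 and KRT18 were lower. Knockout control replicate 2 stood apart from its group. Its mitochondrially encoded genes took 0.364% of counts, while in each of the remaining 11 they took 3.86% to 5.13%. Set against the 2 other knockout controls gene by gene, it gave a chi-square of 127 and 117 per gene, and no other pair of replicates passed 18.6. The totals of members called are given with and without it, as are the knockout log2 fold changes that it moved most. Other knockout values include it unless stated.

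The sequences of a pair of related genes are shown first, since their fold changes in bleomycin had opposite signs. SRSF8 (chr11, 95067197-95071224, plus strand) has its coding sequence in 1 exon and is related to SRSF2 (chr17:76734115-76737374, minus strand). The first 180 coding bases of both, from GENCODE 29 transcripts on GRCh38, are printed 5′ to 3′ with the 20 differing bases in capitals.

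SRSF8: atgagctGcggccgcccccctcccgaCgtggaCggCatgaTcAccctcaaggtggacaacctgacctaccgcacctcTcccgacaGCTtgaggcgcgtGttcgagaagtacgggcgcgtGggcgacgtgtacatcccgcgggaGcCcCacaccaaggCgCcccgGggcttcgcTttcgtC
SRSF2: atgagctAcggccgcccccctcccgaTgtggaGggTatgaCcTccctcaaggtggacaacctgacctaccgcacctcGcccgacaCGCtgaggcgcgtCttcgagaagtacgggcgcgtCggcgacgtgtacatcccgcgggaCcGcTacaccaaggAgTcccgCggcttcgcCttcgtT

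Over 657 aligned coding bases the identity of SRSF8 and SRSF2 was 84.8%, and they shared 0 stretches of 50 bases. HNRNPA1L2 (chr13:52642425-52643796, plus strand), also with its coding sequence in 1 exon, lies far closer to HNRNPA1 (chr12:54280193-54287088, plus strand). HNRNPA1L2 and HNRNPA1 were identical in 98.4% of 963 aligned bases, and 38.7% of the 50-base stretches of HNRNPA1L2 also occur in the coding sequence of HNRNPA1. In transcripts of all other genes 51.3% of the stretches of HNRNPA1L2 occur. The sources used here do not say how reads that fit both genes were assigned. The counts of HNRNPA1L2 are thus uncertain, by an amount that these shares do not measure.

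In bleomycin most of these genes were lower than in control medium, in both genotypes. In knockout cells 27 of the 36 tested members fell and 1 rose, where 20.7% of all 16702 tested genes fell and 22.5% rose. In wild type cells 23 fell and 2 rose, where 19.6% of all tested genes fell and 23.9% rose. A gene counted as changed where edgeR's quasi-likelihood test gave a Benjamini-Hochberg adjusted p under 0.05 over all tested genes. The median log2 fold change, bleomycin over control, of the members was -0.49 in knockout cells and -0.46 in wild type cells. Over all tested genes it was 0.00 and 0.02 in the same order of genotypes. A total of 22 members fell in both genotypes, and SRSF8 rose in both. Among the tested genes with a mean of at least 5 on the log2 CPM scale, which takes in most members, 30.1% fell in knockout cells and 28.1% in wild type cells.

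Without knockout control replicate 2, 30 members fell and 2 rose in knockout cells, and likewise in wild type cells, since all libraries share an estimate of the spread. Of all genes tested in that fit, 22.8% fell and 25.6% rose in knockout cells, and 26.8% fell and 29.8% rose in wild type cells. The same 30 members fell in both genotypes in that fit, and SRSF8 and HNRNPA1L2 rose in both. HNRNPAB, HNRNPH2, SRSF6 and SRSF12 were the 4 members not called in either. Counting only libraries that do not overlap, all 3 bleomycin values lay below all 3 control values for 26 members in knockout cells (23.9% of all tested genes) and for 30 members in wild type cells (29.2% of all tested genes). All 3 lay above for 1 member in knockout cells (27.4% of all tested genes) and 2 in wild type cells (32.1%).

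**Figure D1:**
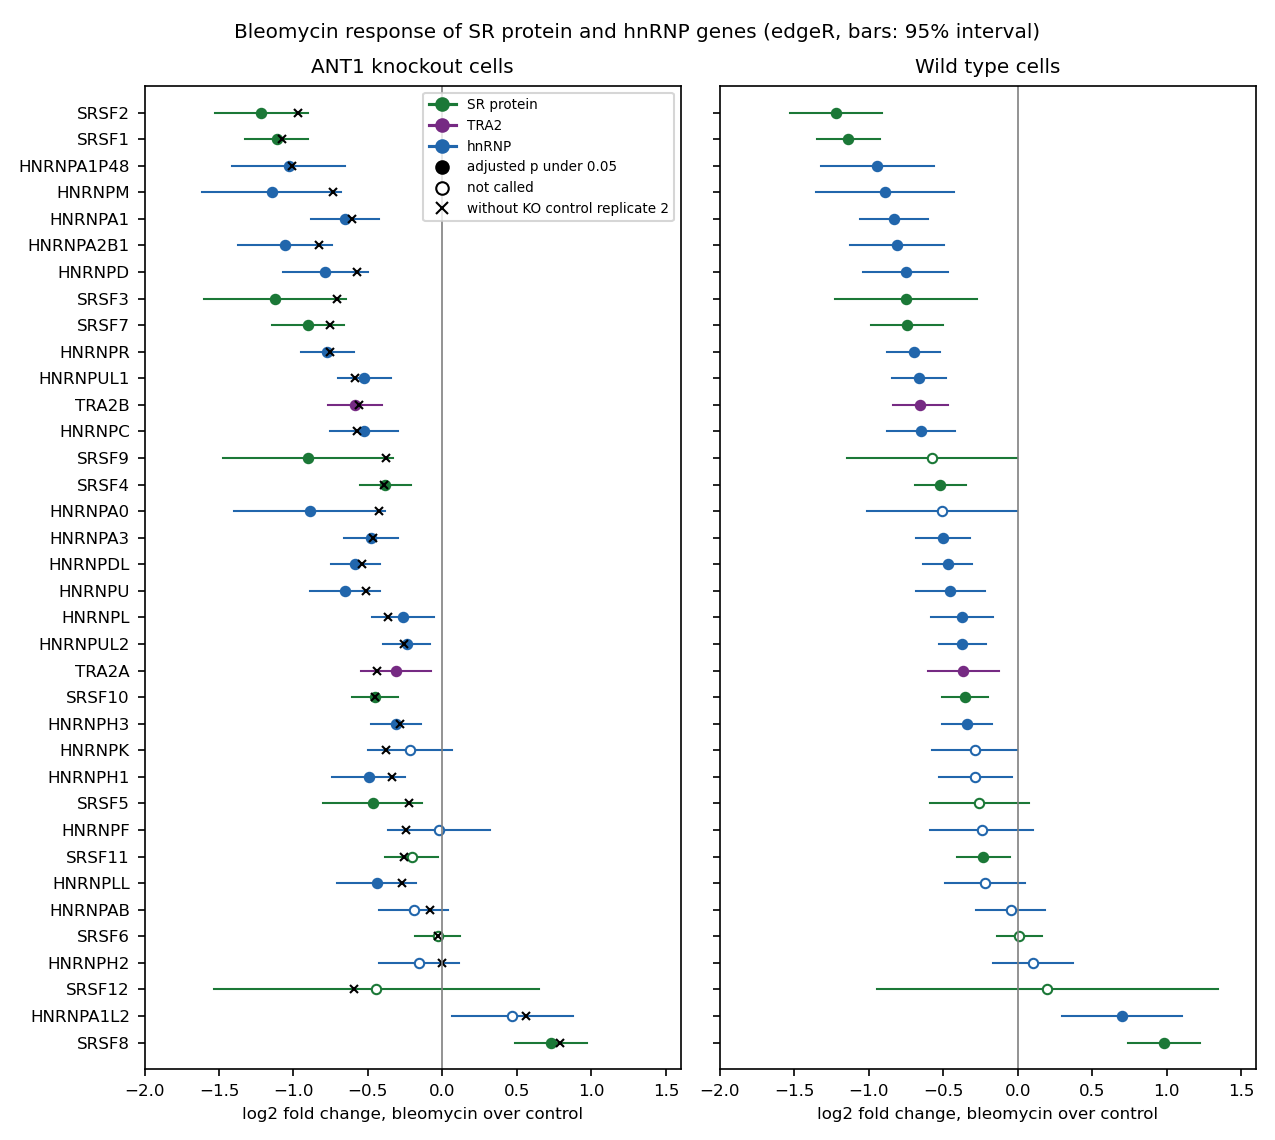
Log2 fold change, bleomycin over control (x axis), of the 36 tested members (rows, ordered by the wild type value) in ANT1 knockout cells (left) and wild type cells (right). Points are edgeR estimates and bars 95% intervals, filled points passed an adjusted p of 0.05, and crosses mark the knockout estimate without knockout control replicate 2. Most points lie left of 0, with SRSF8 and HNRNPA1L2 at the right.

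The members together took 0.793% to 0.819% of all counts in knockout bleomycin libraries. They took 1.11%, 1.14% and, in replicate 2, 1.36% in knockout control libraries. In wild type cells the share was 0.787% to 0.811% with bleomycin and 1.09% to 1.16% in control medium. The SRSF and TRA2 genes took 0.166% to 0.167% of counts in knockout bleomycin libraries, against 0.227% to 0.305% in knockout control libraries, and the hnRNP genes 0.627% to 0.652% against 0.882% to 1.06%. Both families were lower in bleomycin in these cells, with no overlap between the groups. These are shares of the RNA that was sequenced, so fewer transcripts per cell and a change in the cells of the culture cannot be told apart.

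Of the 12 SRSF genes, 8 fell and 1 rose in knockout cells, and 7 fell and 1 rose in wild type cells. With all 12 libraries the lowest fold change in both genotypes was that of SRSF2, and without knockout control replicate 2 SRSF1 was lower in knockout cells (-1.08 against -0.97). SRSF2, also known as SC35, is an SR protein found in nuclear speckles, where splicing factors are stored. It had 105, 109 and 105 CPM in knockout bleomycin libraries, against 209, 326 and 206 CPM in knockout control libraries. It had 91.8, 91.3 and 96.95 CPM in wild type bleomycin libraries, against 222, 219 and 212 CPM in wild type control libraries. No bleomycin library reached a control library, and the highest control value was that of knockout control replicate 2. Its log2 fold change was -1.22 (SE 0.14, adjusted p = 1.99e-05) in knockout cells, -0.97 without that library, and -1.22 (SE 0.14, adjusted p = 1.54e-05) in wild type cells.

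SRSF1, the founding SR protein, which helps U1 snRNP to the 5′ splice site (gene at chr17:58003360-58007346, minus strand), had 51.2, 52.05 and 53.4 CPM in knockout bleomycin libraries, against 108, 119 and 111 CPM in knockout control libraries. In wild type cells it had 48.5, 55.6 and 46.95 CPM with bleomycin, against 124, 104 and 104 CPM in control medium. All 6 bleomycin libraries lay below all 6 control libraries, and knockout control replicate 2 was close to the other controls. The log2 fold change was -1.11 (SE 0.10, adjusted p = 1.34e-06) in knockout cells and -1.14 (SE 0.10, adjusted p = 8.14e-07) in wild type cells. With all 12 libraries it had the smallest adjusted p of the tested members in both genotypes, and without replicate 2 SRSF2 had it.

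SRSF3, the shortest SR protein and an adaptor for mRNA export, had 226, 241 and 235 CPM in knockout bleomycin libraries, against 399.8, 768 and 362 CPM in knockout control libraries. It had 212, 216 and 241 CPM in wild type bleomycin libraries, against 417, 361 and 348 CPM in wild type control libraries. Knockout control replicate 2 held about double the level of the other knockout controls. Bleomycin over control, the log2 fold change was -1.12 (SE 0.22, adjusted p = 0.00127) in knockout cells, -0.71 without that library, and -0.75 (SE 0.22, adjusted p = 0.014) in wild type cells. SRSF7, an export adaptor with a zinc knuckle, had 121, 119 and 114 CPM in knockout bleomycin libraries, against 201, 264 and 196 CPM in knockout control libraries. With 106, 120.3 and 119 CPM in wild type bleomycin libraries, against 203, 194 and 181 CPM in wild type control libraries, its groups were apart in both genotypes. SRSF7 had a log2 fold change of -0.90 (SE 0.11, adjusted p = 3.14e-05) in knockout cells, -0.76 without replicate 2, and -0.74 (SE 0.11, adjusted p = 0.000132) in wild type cells.

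SRSF9, a close relative of SRSF1, had the highest ratio of that library to the other knockout controls among the tested members. It had 117, 112 and 103 CPM in knockout bleomycin libraries, against 141, 334 and 146 CPM in knockout control libraries. In wild type libraries it had 97.7, 94.8 and 115 CPM with bleomycin, against 171, 142 and 147 CPM in control medium. The bleomycin values were below the control values in both genotypes, and knockout control replicate 2 stood 2.33 times as high as replicates 1 and 3 on average. The log2 fold change was -0.90 (SE 0.26, adjusted p = 0.0147) in knockout cells and -0.38 without that library (adjusted p = 0.00192). For wild type cells it was -0.58 (SE 0.26, adjusted p = 0.0943) with all 12 libraries and -0.58 without the library (adjusted p = 4.65e-06), since its spread enters the shared fit.

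SRSF8 went the other way. It had 28.3, 25.9 and 29.8 CPM in knockout bleomycin libraries, against 17.04, 18.4 and 15.3 CPM in knockout control libraries. It had 30.6, 32.04 and 33.5 CPM in wild type bleomycin libraries, against 18.1, 15.8 and 14.9 CPM in wild type control libraries. Every bleomycin library was above every control library. For this gene the log2 fold change was 0.73 (SE 0.11, adjusted p = 0.00018) in knockout cells and 0.98 (SE 0.11, adjusted p = 1.11e-05) in wild type cells. The gene had 275 to 627 counts in a library, and 11.4% of its 50-base coding stretches occur in transcripts of other genes.

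SRSF6, an enhancer-binding SR protein, was the member of at least 10 FPKM (fragments per kilobase of exons, the authors' unit scaled by gene length and library) with the smallest change in wild type cells. It had 243, 248 and 251 CPM in knockout bleomycin libraries, against 249, 255 and 254 CPM in knockout control libraries. It had 255, 257 and 257 CPM in wild type bleomycin libraries, against 251, 264 and 249 CPM in wild type control libraries. The groups overlapped in both genotypes. The 95% interval of the log2 fold change was -0.18 to 0.12 in knockout cells and -0.14 to 0.16 in wild type cells.

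The remaining SRSF genes had smaller fold changes than SRSF1, SRSF2, SRSF3 and SRSF7, or wide intervals. SRSF4, a long SR protein, fell, with a log2 fold change of -0.38 in knockout cells and -0.52 in wild type cells (SE 0.08 each), and SRSF10, which represses splicing when dephosphorylated, also fell, with -0.45 and -0.36 in the same order (SE 0.07 each). SRSF5 fell in knockout cells, at -0.47 (SE 0.15, adjusted p = 0.0259) and -0.22 without replicate 2, and had -0.26 (SE 0.15, adjusted p = 0.197) in wild type cells. The knockout call of SRSF5 was lost in 2 of the 12 fits that left out 1 library. SRSF11 had -0.21 (SE 0.08, adjusted p = 0.0562) in knockout cells and fell in wild type, at -0.23 (SE 0.08, adjusted p = 0.0349), a call that was lost in 6 of the 12 fits that left out 1 library. SRSF12, with 5 to 21 counts in a library, had intervals too wide to place (-1.53 to 0.65 in knockout cells and -0.95 to 1.34 in wild type cells).

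Both TRA2 genes, the human relatives of the Drosophila splicing activator transformer 2, fell in both genotypes. TRA2B had 141 ± 3.43 CPM in knockout bleomycin libraries and 213 ± 10.3 CPM in knockout control libraries (mean ± SD, n = 3 each), with a log2 fold change of -0.59 (SE 0.08, adjusted p = 0.0001). It had 132 ± 5.60 CPM in wild type bleomycin libraries and 208 ± 18.2 CPM in wild type control libraries, with a log2 fold change of -0.65 (SE 0.08, adjusted p = 3.43e-05). TRA2A fell by less, with a log2 fold change of -0.31 (SE 0.11, adjusted p = 0.035) in knockout cells and -0.36 (SE 0.11, adjusted p = 0.0156) in wild type cells. The call of TRA2A was lost in 6 of the 12 fits without 1 library in knockout cells and in 2 of 12 in wild type cells. Without knockout control replicate 2 it held, with -0.44 in knockout cells (adjusted p = 7.2e-05).

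**Figure D2:**
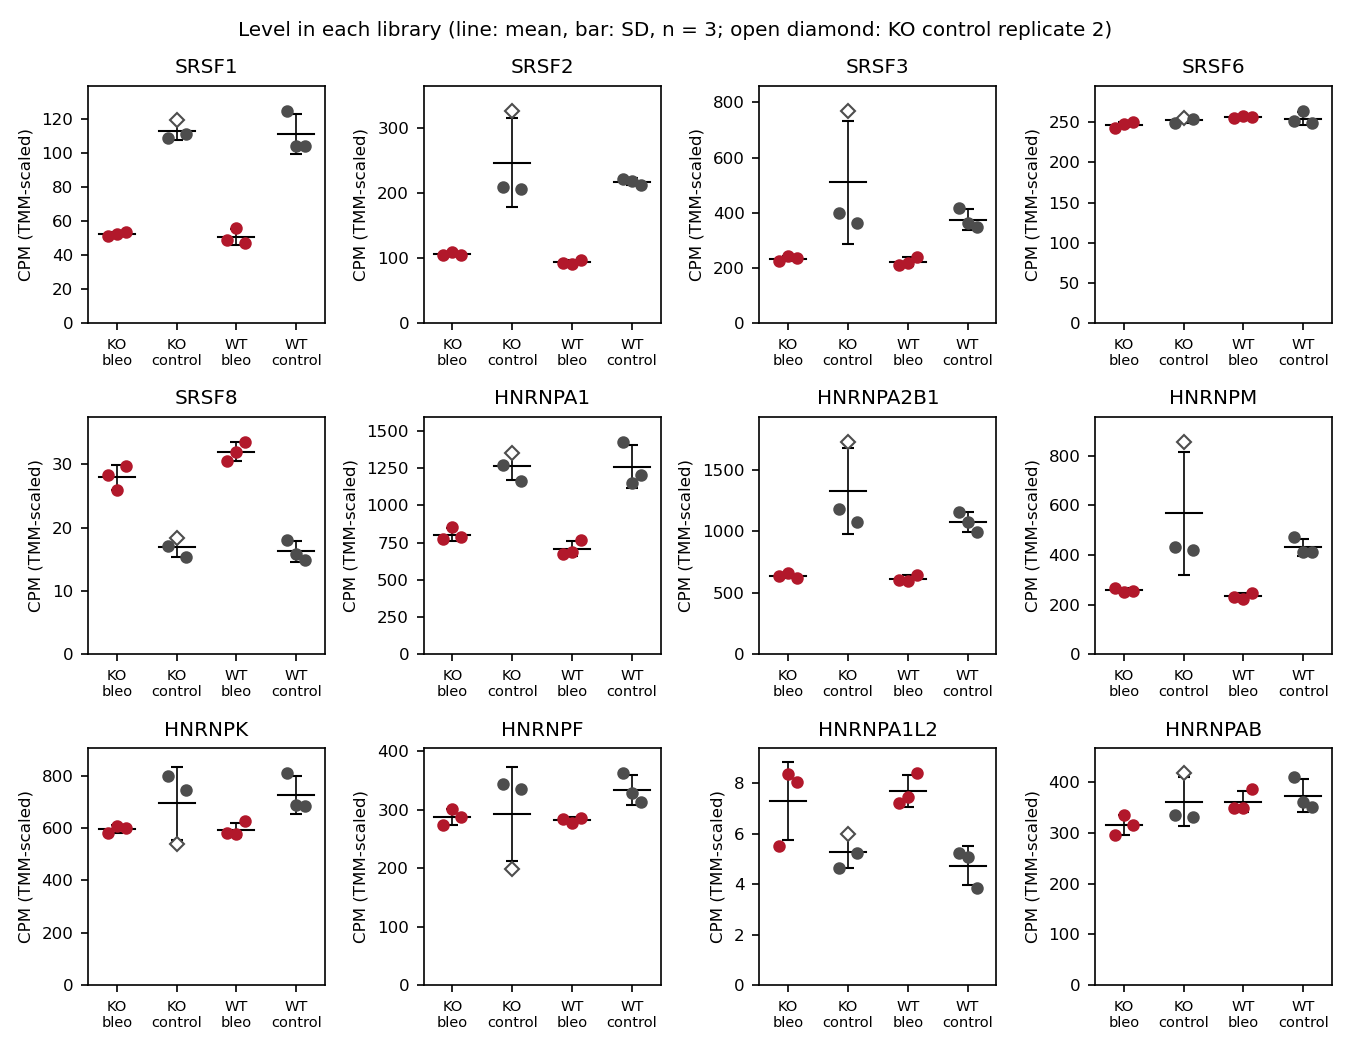
TMM-scaled CPM (y axis, from 0) of 12 members in each of the 12 libraries, by group (x axis, bleomycin in red left of its control in grey). Lines are means and bars SD of 3 libraries, and the open diamond is knockout control replicate 2. The bleomycin libraries lie below the controls for SRSF1, SRSF2 and HNRNPA1, beside them for SRSF6, and above them for SRSF8.

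Of the 22 tested hnRNP genes, 17 fell and 0 rose in knockout cells, and 14 fell and 1 rose in wild type cells. DESeq2 called 0 of them higher in knockout cells as well, while 1 hnRNP gene, HNRNPA1L2, passed an unadjusted p of 0.05 upwards there. Per length, the most abundant members were HNRNPA1, HNRNPAB, HNRNPK, HNRNPA2B1 and HNRNPF, in that order of mean FPKM over the 12 libraries. In wild type control libraries HNRNPA1 averaged 247 ± 28.9 FPKM, HNRNPAB 174 ± 15.2 FPKM and HNRNPK 142 ± 14.3 FPKM (SD, n = 3 each), and the ranges of these 3 did not overlap. HNRNPA2B1 averaged 116 ± 8.77 FPKM, HNRNPF 102 ± 8.02 FPKM and HNRNPA3 97.4 ± 6.52 FPKM in the same libraries, and neighbours in this order overlapped. The FPKM divides by the summed length of all exons, 22512 bases for HNRNPU, so genes with long annotated exons read low on this scale.

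HNRNPA1, which binds splicing silencers and competes with SR proteins, had 772, 852 and 787 CPM in knockout bleomycin libraries, against 1273, 1352 and 1166 CPM in knockout control libraries. In wild type libraries it had 674, 683 and 767 CPM with bleomycin, against 1424, 1154 and 1207 CPM in control medium. No bleomycin library reached a control library. The log2 fold change was -0.65 (SE 0.11, adjusted p = 0.000276) in knockout cells and -0.83 (SE 0.11, adjusted p = 3.01e-05) in wild type cells. HNRNPA2B1, which also sorts microRNAs and mRNAs, had 637, 660.0 and 615 CPM in knockout bleomycin libraries, against 1179, 1721 and 1075 CPM in knockout control libraries. It had 599, 596 and 645 CPM in wild type bleomycin libraries, against 1155, 1073 and 996 CPM in wild type control libraries. All bleomycin libraries were below all controls. HNRNPA2B1 had a log2 fold change of -1.06 (SE 0.15, adjusted p = 7.84e-05) in knockout cells, -0.83 without replicate 2, and -0.81 (SE 0.15, adjusted p = 0.000565) in wild type cells.

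HNRNPM, known for its part in the splicing switch between epithelial and mesenchymal cells, had 267, 251 and 253 CPM in knockout bleomycin libraries, against 432, 855 and 419 CPM in knockout control libraries. In wild type cells the values were 229, 222 and 246 CPM with bleomycin, against 471, 411 and 411 CPM in control medium. The bleomycin libraries were lower throughout, and knockout control replicate 2 again had about double the level of its group. On the log2 scale the fold change was -1.15 (SE 0.22, adjusted p = 0.000936) in knockout cells, -0.73 without that library, and -0.89 (SE 0.21, adjusted p = 0.0046) in wild type cells. HNRNPA0, which binds AU-rich elements and has its coding sequence in 1 exon, had 265, 237 and 264 CPM in knockout bleomycin libraries, against 336, 737 and 347 CPM in knockout control libraries. It had 254, 260.3 and 279 CPM in wild type bleomycin libraries, against 379, 368 and 381 CPM in wild type control libraries. The groups did not overlap in either genotype. Its log2 fold change was -0.89 (SE 0.23, adjusted p = 0.00829) in knockout cells and -0.51 (SE 0.23, adjusted p = 0.0969) in wild type cells. Without replicate 2 it was -0.42 in knockout cells (adjusted p = 8.18e-05) and -0.51 in wild type cells (adjusted p = 1.54e-06).

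HNRNPK and HNRNPF showed the opposite dependence. HNRNPK, which binds runs of C and acts with p53 after DNA damage, had 579, 609 and 601 CPM in knockout bleomycin libraries, against 799.5, 537 and 746 CPM in knockout control libraries. It had 579.8, 577 and 625 CPM in wild type bleomycin libraries, against 808, 687 and 683 CPM in wild type control libraries. Knockout control replicate 2 was the lowest of all 12 libraries. The log2 fold change was -0.22 (SE 0.13, adjusted p = 0.195) in knockout cells and -0.29 (SE 0.13, adjusted p = 0.09) in wild type cells. Without that library it was -0.38 in knockout cells (adjusted p = 0.00102) and -0.29 in wild type cells (adjusted p = 0.00279).

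HNRNPF, which binds runs of G, had 274, 301 and 288 CPM in knockout bleomycin libraries, against 343, 199 and 336 CPM in knockout control libraries. In wild type libraries it had 284, 278 and 286 CPM with bleomycin, against 362, 328 and 313 CPM in control medium. The knockout groups overlapped through replicate 2 alone, and the wild type groups did not overlap. Its log2 fold change came to -0.02 (SE 0.16, adjusted p = 0.916) in knockout cells and -0.24 without replicate 2 (adjusted p = 0.0128). For wild type cells it was -0.24 (SE 0.16, adjusted p = 0.241), and -0.25 without that library (adjusted p = 0.00447).

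HNRNPAB, which binds AU-rich and G-rich RNA, had 297, 335 and 316 CPM in knockout bleomycin libraries, against 336, 418 and 331 CPM in knockout control libraries. It had 350.3, 349 and 386 CPM in wild type bleomycin libraries, against 410.2, 362 and 351 CPM in wild type control libraries. The groups overlapped in both genotypes. The 95% interval of its log2 fold change was -0.42 to 0.04 in knockout cells and -0.28 to 0.18 in wild type cells. By FPKM, which divides by gene length, the second most abundant member was thus not called while the most abundant, HNRNPA1, fell.

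HNRNPA1P48, a protein-coding gene here in spite of its pseudogene name, had 8.51, 6.70 and 6.58 CPM in knockout bleomycin libraries, against 17.1, 15.4 and 11.97 CPM in knockout control libraries. It had 7.28, 5.62 and 6.89 CPM in wild type bleomycin libraries, against 14.9, 11.7 and 11.5 CPM in wild type control libraries, with no overlap in either genotype. The log2 fold change was -1.03 (SE 0.18, adjusted p = 0.000413) in knockout cells and -0.94 (SE 0.18, adjusted p = 0.000722) in wild type cells. It was identical to HNRNPA1 in 99.3% of 828 aligned coding bases, and 64.4% of its 50-base stretches occur in that gene's coding sequence. In transcripts of all other genes 76.8% of them occur. The counts of HNRNPA1P48 are thus uncertain, by an amount that these shares do not measure. HNRNPA1L2, singled out after its values were seen, had 5.52, 8.35 and 8.05 CPM in knockout bleomycin libraries, against 4.65, 5.97 and 5.25 CPM in knockout control libraries. It had 7.23, 7.45 and 8.39 CPM in wild type bleomycin libraries, against 5.24, 5.09 and 3.84 CPM in wild type control libraries. The knockout groups overlapped and the wild type groups did not. By edgeR the log2 fold change was 0.47 (SE 0.19, adjusted p = 0.0604) in knockout cells, 0.56 without replicate 2 (adjusted p = 0.0226), and 0.70 (SE 0.19, adjusted p = 0.00829) in wild type cells, upwards where the near-identical HNRNPA1 fell. Its single exon overlaps the non-coding gene AL137058.2 on the same strand, which had 9.32% as many counts over the 12 libraries and log2 fold changes of 1.59 in knockout cells and 2.99 in wild type cells.

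Among the 13 remaining tested hnRNP genes, 10 fell in both genotypes. HNRNPD, the AU-rich element binder AUF1, had a log2 fold change of -0.79 in knockout cells and -0.75 in wild type cells (SE 0.13 each). Without knockout control replicate 2 it was -0.57 in knockout cells. HNRNPR, a relative of SYNCRIP, had -0.77 and -0.70, HNRNPUL1, which is drawn to DNA breaks, -0.52 and -0.66, and HNRNPC, which binds runs of U and packs nascent RNA, -0.53 and -0.65, all as knockout and then wild type log2 fold changes. HNRNPU, the chromatin-bound scaffold attachment factor, had -0.65 and -0.45, HNRNPDL -0.58 and -0.47, and HNRNPA3 -0.48 and -0.50 on the same scale. HNRNPH3, HNRNPL, which binds CA repeats, and HNRNPUL2 fell in both genotypes with log2 fold changes between -0.38 and -0.24. The knockout call of HNRNPL was lost in 10 of the 12 fits that left out 1 library, and that of HNRNPUL2 in 3. Without knockout control replicate 2 the call of HNRNPL held, at -0.37 in knockout cells (adjusted p = 0.000269). HNRNPH1 and HNRNPLL, which regulates splicing in T cells, fell in knockout cells, at -0.50 and -0.44, while in wild type cells they had -0.29 (SE 0.11, adjusted p = 0.0568) and -0.22 (SE 0.12, adjusted p = 0.167). Without replicate 2 both passed in both genotypes, HNRNPH1 with -0.34 in knockout and -0.29 in wild type cells and HNRNPLL with -0.27 and -0.22. HNRNPH2, a paralog of HNRNPH1 with its coding sequence in 1 exon, had intervals of -0.42 to 0.11 in knockout cells and -0.17 to 0.37 in wild type cells.

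Knockout control replicate 2 was above its group for some members and below it for others. Relative to the mean of replicates 1 and 3 its level was over 1.25 times for 14 members, under 0.8 times for 5 and between for 17. The ratio was highest for SRSF9 (2.33), HNRNPA0 (2.16), SRSF3 (2.01) and HNRNPM (2.01), and lowest for HNRNPF (0.59), HNRNPK (0.69) and SRSF12 (0.71). With it the knockout log2 fold change was lower by over 0.2 for 8 members: HNRNPA0, HNRNPA2B1, HNRNPD, HNRNPM, SRSF2, SRSF3, SRSF5 and SRSF9. The knockout log2 fold change was higher by over 0.1 with replicate 2 for 5 members: HNRNPF, HNRNPK, HNRNPL, SRSF12 and TRA2A. Its low mitochondrial share moved with these values, and its part in them was not tested.

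**Figure D3:**
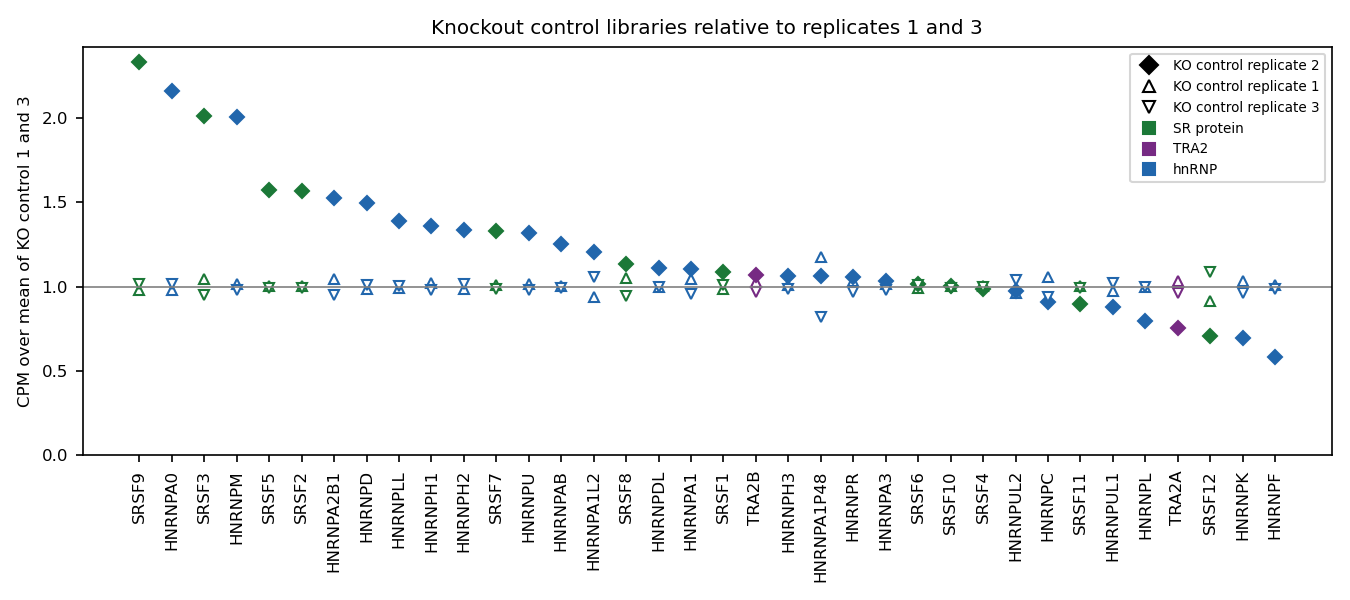
CPM of each knockout control library divided by the mean of knockout control replicates 1 and 3 (y axis, from 0) for the 36 tested members (x axis). Filled diamonds are replicate 2 and open triangles replicates 1 and 3, which lie near 1 for most members while replicate 2 runs between 0.59 and 2.33.

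Between the genotypes no member was called at the depth and spread of these libraries. In bleomycin, knockout against wild type, edgeR called 0 of the 36 members (0.0479% of all tested genes passed). It called 0 in control medium as well (0.168% of all tested genes passed), and 0 in the interaction, which subtracts the log2 bleomycin response in wild type from that in knockout (0% of all tested genes passed). At an unadjusted p of 0.05 edgeR also called 0 members in each of the 3, where 6.6% of all tested genes passed in bleomycin, 9.94% in control medium and 4.61% in the interaction, and DESeq2 and limma on log2 FPKM called 0 after adjustment. The whole 95% interval of the log2 difference between genotypes lay within 0.5 of 0 for 30 members in bleomycin and for 26 in control medium. The interval of the interaction lay within 0.5 of 0 for 20 members.

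Without knockout control replicate 2 the intervals lay within 0.5 of 0 for 35 members in bleomycin, 34 in control medium and 32 in the interaction, and 0 members passed in any, where 1.71%, 1.02% and 0.0523% of all genes tested in that fit passed. An unadjusted p under 0.05 was then reached by 5 members in bleomycin (14% of all genes tested), 0 in control medium (9.65%) and 1 in the interaction (7.75%). In bleomycin these were HNRNPA1 (0.18), HNRNPD (0.18), SRSF2 (0.19), SRSF8 (-0.19) and HNRNPAB (-0.19), given as log2 fold changes, knockout over wild type. In the interaction it was SRSF2 (0.26). None held after adjustment, the smallest adjusted p being 0.139 in bleomycin and 0.489 in the interaction.

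The 2 members that rose have their coding sequence in 1 exon. In GENCODE 29, 6 tested members have it so: HNRNPA0, HNRNPA1L2, HNRNPA1P48, HNRNPF, HNRNPH2 and SRSF8. Of these, 2 fell and 1 rose in knockout cells, and 1 fell and 2 rose in wild type cells, with median log2 fold changes of -0.09 in knockout cells and -0.07 in wild type cells. Of the 30 members with more coding exons, 25 fell in knockout cells and 22 in wild type cells, 0 rose in either, and the medians were -0.51 in knockout cells and -0.49 in wild type cells. Without knockout control replicate 2, 3 of the 6 fell in each genotype, and 27 of the 30. SRSF2, with 2 coding exons, had the lowest wild type value. This split was made after the values were seen and carries no test. At least 1 transcript marked for NMD is annotated for 27 of the 36 tested members (75.0%), against 42.2% of the 13467 protein-coding genes tested. Members with such a transcript had a median of -0.53 in knockout cells and -0.52 in wild type cells, and the 9 others -0.24 in knockout cells and -0.34 in wild type cells. Both splits share members, since HNRNPA0, HNRNPA1L2, HNRNPA1P48, HNRNPF and HNRNPH2 are among the 9 and also have 1 coding exon. The NMD split carries no test either. Gene counts do not show which transcript was made.

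**Figure D4:**
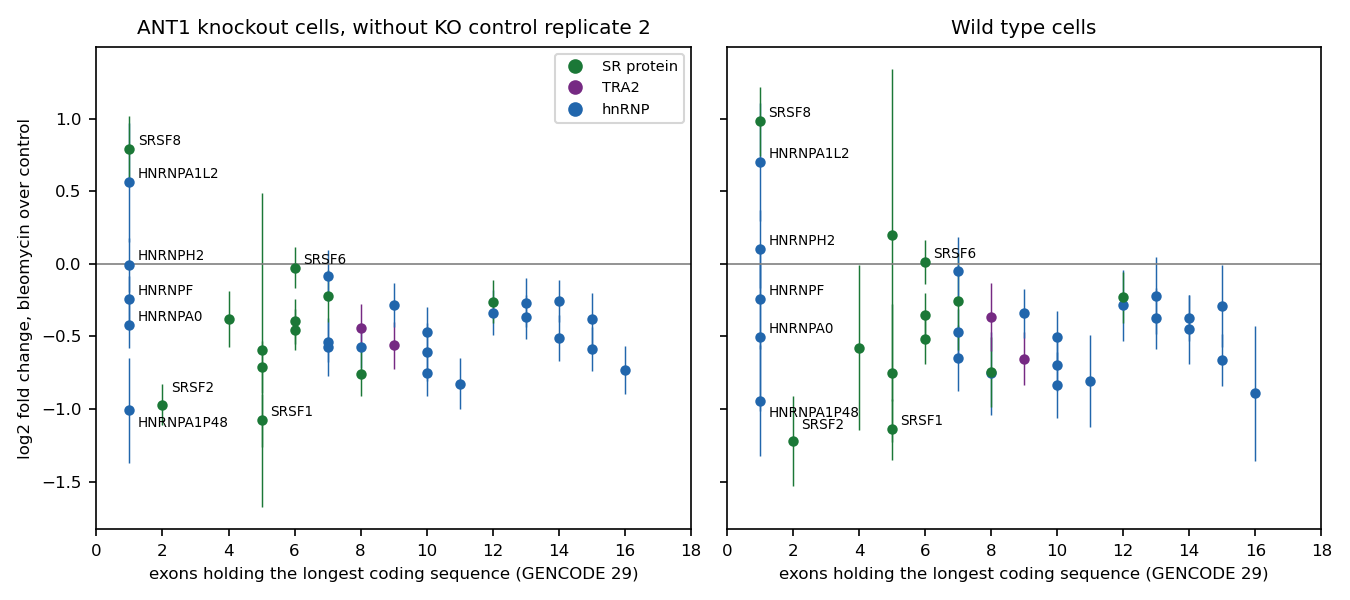
Log2 fold change, bleomycin over control (y axis), with its 95% interval (bars) against the number of exons that hold the longest coding sequence in GENCODE 29 (x axis), for the 36 tested members in knockout cells without knockout control replicate 2 (left) and in wild type cells (right). The 6 members at 1 exon range from HNRNPA1P48 at -1.01 to SRSF8 at 0.79 in knockout cells and from -0.94 to 0.98 in wild type cells.

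The promoter windows of SRSF8, which rose, and SRSF1, which fell, are shown for their different base composition. Each runs from 250 bases before to 50 after the RefSeq gene start on GRCh38.p14, printed 5′ to 3′ along the gene. Capitals mark CCAAT and GGGCGG on either strand, of which there is 1 match, the reverse of CCAAT in SRSF8.

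SRSF8 (chr11:95066627-95066926, plus strand): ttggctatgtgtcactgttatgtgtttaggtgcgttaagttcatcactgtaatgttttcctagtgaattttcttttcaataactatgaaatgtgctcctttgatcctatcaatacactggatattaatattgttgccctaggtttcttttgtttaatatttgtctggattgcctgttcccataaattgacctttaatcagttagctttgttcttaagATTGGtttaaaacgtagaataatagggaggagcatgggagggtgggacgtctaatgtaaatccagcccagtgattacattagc
SRSF1 (chr17:58007197-58007496, minus strand): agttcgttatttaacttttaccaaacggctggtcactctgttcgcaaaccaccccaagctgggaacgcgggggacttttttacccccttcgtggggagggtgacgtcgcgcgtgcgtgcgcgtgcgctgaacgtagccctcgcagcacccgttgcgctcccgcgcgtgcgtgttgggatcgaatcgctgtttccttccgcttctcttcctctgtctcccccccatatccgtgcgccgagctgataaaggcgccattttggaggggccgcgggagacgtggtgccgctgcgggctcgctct

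The SRSF8 window was 36.0% G and C with 3 CG pairs, the lowest among the 46 windows of 32 tested members, and the SRSF1 window 62.0% with 35 CG pairs. The median of those windows was 64.8% with 29 CG pairs, and that of the 16260 windows of all tested genes was 64.7% with 25 CG pairs. The window of HNRNPA1L2, which rose in wild type cells, was 61.3% G and C with 23 CG pairs. That of HNRNPC, which fell in both genotypes, was 49.3% with 15 CG pairs. A link between base composition and direction was not tested. A start upstream of the deposited gene start was used for SRSF8 and for HNRNPA1L2. Of the motifs searched on both strands, CCAAT was in 47.8% of the members' windows and 34.0% of the windows of all tested genes. The GC box GGGCGG was in 63.0% and 64.7%, the TATA box TATAAA in 13.0% and 6.65%, and the E-box CACGTG in 17.4% and 9.08%. The E2F-type motifs TTTCGCGC and TTTGGCGC were in 0 of the members' windows and in 0.732% and 0.978% of the windows of all tested genes.

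A palindromic CGCG element, whose letters stand in capitals in the lines that follow, was in the windows of 3 members, 6.52% of the members' windows against 0.695% of those of all tested genes. The 50 bases around it are printed on the gene's strand.

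SRSF10 (chr1:23980350-23980399, minus strand): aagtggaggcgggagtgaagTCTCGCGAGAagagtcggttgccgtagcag
HNRNPK (chr9:83980643-83980692, minus strand): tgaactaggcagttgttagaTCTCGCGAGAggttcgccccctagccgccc
HNRNPH3 (chr10:68331961-68332010, plus strand): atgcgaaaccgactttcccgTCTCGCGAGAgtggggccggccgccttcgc

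It began 52, 57 and 83 bases before the start of SRSF10, HNRNPK and HNRNPH3. SRSF10 and HNRNPH3 fell in both genotypes, and HNRNPK was not called with all 12 libraries. A match of letters is no evidence that a factor binds there.

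The related genes of the splicing machinery were counted from 5 lists. Of the 10 kinases and import factors of SR proteins, 3 fell and 1 rose in knockout cells, and 2 fell and 2 rose in wild type cells, near the shares over all tested genes (20.7% lower and 22.5% higher in knockout cells, 19.6% and 23.9% in wild type cells). The number that rose was 2 in knockout cells without knockout control replicate 2, and 1 in wild type cells without wild type bleomycin replicate 2 or without wild type control replicate 1. TNPO3, which carries SR proteins into the nucleus, fell, with log2 fold changes of -0.50 (SE 0.09, adjusted p = 0.000877) in knockout cells and -0.52 (SE 0.09, adjusted p = 0.000612) in wild type cells. CLK3, a kinase of SR proteins, rose by 0.37 (SE 0.08, adjusted p = 0.00313) and 0.44 (SE 0.08, adjusted p = 0.000695) in the same order. The kinase PRPF4B fell, with -0.42 and -0.37. SRPK3 rose in wild type cells, at 1.18 (SE 0.36, adjusted p = 0.0158), with 3.38 ± 0.885 CPM in bleomycin and 1.49 ± 0.359 CPM in control medium (SD, n = 3 each), and had 0.57 (SE 0.35, adjusted p = 0.21) in knockout cells.

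Of 18 SR-related and speckle proteins, 9 fell and 0 rose in knockout cells, where 20.7% of all tested genes fell and 22.5% rose. In wild type cells 5 fell and 1 rose, where 19.6% of all tested genes fell and 23.9% rose. Without knockout control replicate 2, 11 fell and 1 rose in knockout cells, and 12 fell and 2 rose in wild type cells. Of all genes tested in that fit, 22.8% fell and 25.6% rose in knockout cells, and 26.8% fell and 29.8% rose in wild type cells. RBM25 had log2 fold changes of -0.83 in knockout cells and -0.65 in wild type cells (SE 0.11 each), and THRAP3 -0.59 and -0.67 (SE 0.12 each). LUC7L3, a U1 snRNP partner, had -0.63 and -0.43 (SE 0.08 each), and SON, a core protein of speckles, -0.63 and -0.48 (SE 0.11 each), all called lower.

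Of 23 genes of the core snRNPs and splice site recognition, 8 fell and 3 rose in knockout cells, and 8 fell and 1 rose in wild type cells. The shares of all tested genes were 20.7% lower and 22.5% higher in knockout cells, and 19.6% and 23.9% in wild type cells. Among tested genes with a mean of at least 5 on the log2 CPM scale, 30.1% fell in knockout cells and 28.1% in wild type cells. The wild type number that fell was 12 without knockout control replicate 2 (26.8% of all genes tested in that fit). It was 4 without wild type bleomycin replicate 1, 3 without wild type bleomycin replicate 2, 4 without wild type control replicate 1 and 5 without wild type control replicate 2. SF3A3, of the U2 snRNP, rose by 0.47 (SE 0.09, adjusted p = 0.000832) in knockout cells and 0.53 (SE 0.09, adjusted p = 0.000295) in wild type cells, while its partner SF3B3 fell, with -0.54 and -0.46. The U5 snRNP genes EFTUD2 and SNRNP200 fell, with -0.50 and -0.34 in knockout cells, and -0.47 and -0.36 in wild type cells.

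Of 24 other RNA-binding splicing regulators, 8 fell and 2 rose in knockout cells, where 20.7% of all tested genes fell and 22.5% rose. In wild type cells 9 fell and 2 rose, where 19.6% of all tested genes fell and 23.9% rose. Without knockout control replicate 2, 13 fell in knockout cells and 14 in wild type cells (22.8% and 26.8% of all genes tested in that fit). TARDBP, the gene of TDP-43, fell, with log2 fold changes of -0.74 in knockout cells and -0.60 in wild type cells, and SYNCRIP, also called hnRNP Q, with -0.57 and -0.51. ESRP1, a regulator of epithelial splicing, rose at very low levels, 0.928 ± 0.352 CPM in knockout bleomycin and 0.0207 ± 0.0359 CPM in knockout control libraries (adjusted p = 0.000179). In wild type cells it had 0.735 ± 0.176 CPM with bleomycin and 0.0170 ± 0.0294 CPM in control medium (SD, n = 3 each, adjusted p = 0.000199), where its control level is under that of 1 count per library.

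Of 10 NMD genes, 2 rose in knockout cells and 3 in wild type cells, near the shares of all tested genes that rose, 22.5% and 23.9%. The number that fell was 2 in knockout cells and 1 in wild type cells, where 20.7% and 19.6% of all tested genes fell. It depended on single libraries and ran from 0 to 5 in knockout cells and from 0 to 3 in wild type cells. Both numbers were highest without knockout control replicate 2. SMG6, the endonuclease of the pathway, rose by 0.69 (SE 0.09, adjusted p = 5.77e-05) in knockout cells and 0.64 (SE 0.09, adjusted p = 9.53e-05) in wild type cells. SMG9 rose by 0.45 and 0.45 (SE 0.09 each). UPF3A had 0.17 (SE 0.08, adjusted p = 0.101) in knockout cells and rose in wild type, at 0.30 (SE 0.08, adjusted p = 0.0087). SMG5 had -0.16 in knockout cells and fell, with -0.20 (SE 0.07, adjusted p = 0.0402) in wild type cells. The medians of the 5 lists lay between -0.25 and -0.02 in knockout cells and between -0.23 and -0.01 in wild type cells. Without knockout control replicate 2 the knockout medians lay between -0.31 and -0.11. Between genotypes and in the interaction edgeR called 0 genes of the 5 lists.

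**Figure D5:**
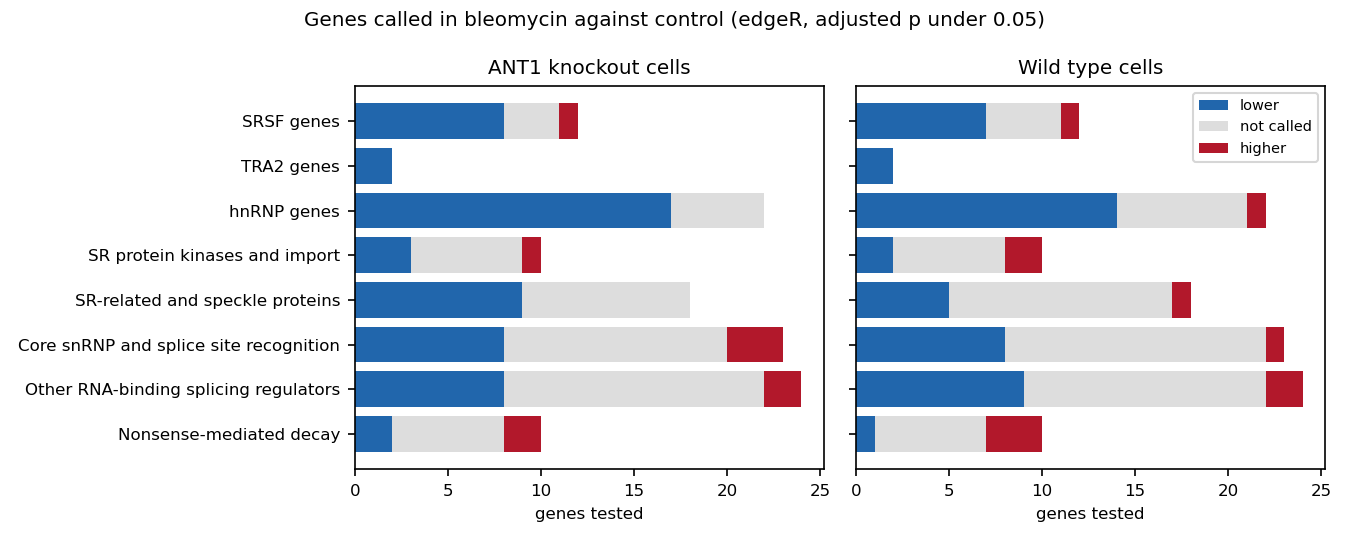
Number of tested genes (x axis) called lower (blue), not called (grey) and called higher (red) in bleomycin against control, for the 3 families of members and 5 related lists (rows), in knockout cells (left) and wild type cells (right) with all 12 libraries. Among hnRNP genes 17 of 22 are lower in knockout cells and 14 of 22 in wild type cells, while of all tested genes 20.7% and 19.6% are lower.

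Overlaps with other genes, singled out after their values were seen, limit some of these values. Exons of 17 members overlap those of another annotated gene, 12 of them on the opposite strand, and the sources used here do not say whether the counting used strand. The opposite-strand neighbour of HNRNPA2B1 is CBX3, which had 21.0% as many counts and log2 fold changes of -1.09 in knockout cells and -0.84 in wild type cells, close to those of HNRNPA2B1. MFSD11, across SRSF2, had 15.8% as many counts and was not called (0.15 in knockout cells and 0.18 in wild type cells), as was GATC, across SRSF9 (0.08 and 0.20). TGFB1, across HNRNPUL1, had 33.4% as many counts and RUFY2, across HNRNPH3, 25.0%, and neither was called in either genotype. PHYKPL, across HNRNPAB, had 9.94% as many counts and was called higher in knockout cells (0.42, adjusted p = 0.00712). For 8 tested members over 50% of the 50-base coding stretches occur in transcripts of other genes. Among them are HNRNPUL2 with 96.3%, SRSF1 with 90.3%, HNRNPA3 with 89.8%, SRSF2 with 88.7% and HNRNPA1 with 83.3%. Their counts are uncertain, by an amount that these shares do not measure. For HNRNPUL2, SRSF1 and SRSF2 the main partner is a gene whose exons overlap those of the member itself. It was HNRNPUL2-BSCL2 for HNRNPUL2 (8 counts over the 12 libraries) and AC015813.2 for SRSF1 (2 counts). For SRSF2 it was MFSD11, with 15.8% as many counts. How reads that fit both genes were assigned is not given. The 74 pseudogenes named after HNRNPA1 held 1.23% as many counts as that gene.

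Markers of other cells moved with the bleomycin comparison, as did keratins of the line itself. Of the leukocyte markers, CD14 had 2.60 to 5.32 CPM in knockout bleomycin libraries, against 29.7 to 40.8 CPM in knockout control libraries. It had 1.61 to 2.62 CPM in wild type bleomycin libraries, against 19.5 to 23.7 CPM in wild type control libraries. PTPRC, CD3E and LYZ stayed at or under 0.427 CPM in every library. The 5 fibroblast markers summed to 215 to 230.3 CPM in knockout bleomycin libraries, against 174 to 381 CPM in knockout control libraries, lowest in replicate 2. In wild type libraries they summed to 184 to 202 CPM with bleomycin, against 356 to 382 CPM in control medium. THY1 and PDGFRB made up that sum, LUM was at 0, and DCN and PDGFRA stayed at or under 0.321 CPM. The 4 endothelial markers summed to 2.14 to 4.04 CPM over all libraries, and within that sum VWF and KDR were higher and CDH5 lower in bleomycin. KDR had 0.571 to 1.22 CPM in knockout bleomycin libraries, against 0.181 to 0.383 CPM in knockout control libraries. In wild type cells KDR had 0.641 to 1.03 CPM with bleomycin, against 0.108 to 0.254 CPM in control medium. PECAM1 stayed at or under 0.319 CPM in every library. VWF had 1.25 to 1.71 CPM in knockout bleomycin libraries, against 0.544 to 1.15 CPM in knockout control libraries, and 1.45 to 1.92 CPM in wild type bleomycin libraries, against 0.204 to 0.318 CPM in wild type control libraries. CDH5 had 0.707 to 0.904 CPM in knockout bleomycin libraries, against 2.13 to 3.20 CPM in knockout control libraries, and 0.344 to 0.588 CPM in wild type bleomycin libraries, against 1.68 to 2.82 CPM in wild type control libraries. The 4 markers of ciliated and secretory cells summed to 4.38 to 5.90 CPM in knockout bleomycin libraries and 3.41 to 6.19 CPM in wild type bleomycin libraries. In the matching controls the sum was at most 0.121 and 0.153 CPM. MUC5AC made up most of it, with 3.32 to 4.73 CPM in knockout bleomycin and 2.68 to 4.64 CPM in wild type bleomycin libraries. FOXJ1 had 0.317 to 1.15 CPM in bleomycin libraries and 0 in all controls. TPPP3 and SCGB1A1 stayed at or under 0.344 CPM in every library. The part of all these markers in the levels of the splicing factor genes was not tested.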

How the data were processed

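The submitters' processing notes name the aligner HISAT2 2.0.5 and the counter featureCounts 1.5.0-p3. The authors deposited raw counts and FPKM values for 12 libraries and 58735 genes; the strand setting and genome build are not given there, and all 40 members have the coordinates of GENCODE 29 on GRCh38. The deposited FPKM equalled count over gene length and a factor per library. The labels' protocols name a directional and a non-directional kit and do not say which was used.

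Counts were tested with edgeR 4.0.16 in R 4.3.3: filterByExpr, TMM scaling, glmQLFit with robust estimation, 1 fit of 12 libraries with 4 group means, 5 contrasts, and Benjamini-Hochberg adjustment over 16702 genes at 0.05. CPM values are TMM-scaled. SE is the log2 fold change over the square root of F, and 95% intervals use the residual and prior degrees of freedom. The script was tested on simulated data, with changes set in wild type bleomycin for genes with a mean of at least 5 on the log2 CPM scale. Of 50 genes each, it called 90% at a log2 change of -1, 98% at 1, 24% at -0.5 and 42% at 0.5. It called 0.0373% of the unchanged genes. Changes of 0.5 were thus mostly missed in the simulation, where 200 genes changed. In the data 7262 genes were called in wild type cells. The adjustment depends on how many genes change, so the simulated shares do not carry over to the data. Alternatives were DESeq2 1.42.0, limma 3.58.1 on log2(FPKM + 1) and log2(FPKM + 0.1), other scalings, no filter, 2-group fits, a replicate block and each library left out. Values in every library are given for members called with an absolute log2 fold change of at least 0.8, the 5 of highest FPKM, any called between genotypes, and the flattest member of at least 10 FPKM; up to 4 genes per related list with the smallest wild type p are named. The members and lists were chosen with earlier results of these data known. Shared 50-base stretches and exons were read from GENCODE 29, and promoters from RefSeq (35 of 40 members matched). Floors cover counting error only, and where replicates were not separate cultures, p-values measure technical spread. No library was a duplicate of another. Some named genes and sequences are not reported here.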

Additional observations from a re-analysis of the deposited data

How the results depend on the processing

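The number of members called kept within 1.5 times its main value under every alternative run, and no called member changed sign. In knockout cells 28 members were called, and the total ran from 21 to 29 under other scalings, filters, tools and fits (21 with only the 2 groups compared) and from 24 to 32 with single libraries left out, 32 without knockout control replicate 2. In wild type cells it was 25, and ran from 24 to 32 and from 23 to 32 in the same settings. These totals do not say which members were called. Between genotypes and in the interaction 0 members were called in every setting. With the replicate block 27 members were called in knockout cells and 24 in wild type cells. Same-numbered libraries deviated together with a correlation of -0.13 to 0.11 (median -0.01). For differently numbered libraries it was -0.12 to 0.20 (median 0.005). The numbers thus gave no sign of pairing, though with 3 libraries per group a weak pairing could be missed. HNRNPA1L2 brought the members higher in knockout cells to 2, against 1, with library totals, upper-quartile factors, or without knockout control replicate 2 or knockout bleomycin replicate 1. Scaling moved the median of all genes by at most 0.04 on the log2 scale. Over all genes the calls between genotypes were unstable. In bleomycin there were 8, and 2 to 294 with libraries left out or 4 to 312 otherwise. In control medium there were 28, and 0 to 175 or 0 to 321. The interaction gave 0, and 0 to 9 or 0 to 13. Depth limits SRSF12 and the HNRNPCL genes.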
